A study of Mus musculus with 5 samples.

Results

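The comparison described here sets the first day of osteoclast differentiation, the array labelled day 1, against the array labelled day 0. Osteoclasts are the multinucleated cells that resorb bone, and they can be grown from macrophages of the bone marrow. The members were chosen by the labelled day, with 1 array for each day, so 2 of the 5 arrays of the series enter the comparison. They were read over 12049 genes out of 22180 with a row of their own. Those genes had a mean over the 5 arrays at or above 4.89, the median over all rows on the log2 scale, and they are called measured below.

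All cells came from the bone marrow of wild-type mice aged 10 weeks, were grown on plastic, and differed by label only in the time of culture. The titles place both arrays in the differentiation of bone marrow-derived macrophages to osteoclasts, 1 at day 0 and 1 at day 1. By the labels the medium held 20 ng/ml M-CSF, which keeps macrophages and their precursors alive, and 30 ng/ml RANKL, the cytokine that sets off osteoclast formation. Labelled cDNA was made from 5 ng of total RNA and hybridised to Affymetrix arrays. The sources used here do not state the strain or sex of the mice, or how many animals or dishes stood behind an array. Cells kept for 1 day without RANKL were not analysed here, so the cytokine and the time in culture cannot be told apart. The labels give every day the same medium, and which of it the day 0 cells had received is not stated, so a difference in M-CSF between the days cannot be told apart either.

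RANKL binds the receptor RANK (Tnfrsf11a) on macrophage precursors, which recruits TRAF adaptors and switches on NF-kB and MAP kinases. These act through AP-1 factors on Nfatc1, the master regulator of the osteoclast programme, while repressors such as Irf8 hold that programme back in macrophages. Later the cells fuse, attach through integrins and podosomes, and secrete acid and proteases onto bone.

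Each day has a single array, so nothing can be tested against a spread of cultures. Every difference below is the log2 value at day 1 minus that at day 0 on single arrays, with no p-value, and the number of arrays limits its precision. As a yardstick of measurement noise, the differences given by 2 rows of the same gene disagreed with an SD of 0.46 over 442 genes. From day 3 to day 5 the SD over the measured genes was 0.24, against 0.56 from day 0 to day 1. Neither value covers the spread between cultures. Array medians lay between 4.88 and 4.92, and the quantile normalisation behind these values hides any shift common to all genes.

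A difference of 2-fold or more was found upward in 351 of the 12049 measured genes (2.91%) and downward in 503 (4.17%). Whatever the size, 5921 of the 12049 lay above their day 0 value and 5203 below, and the rest were tied. These shares and counts and an overall median of 0.00 are the background for every gene list below. A difference of at least 4-fold was seen in 61 higher and 66 lower genes, and at least 8-fold in 18 higher and 7 lower genes. Just inside the limit lay Neurl1b (1.0009) and Mmp13 (-1.0008), and just outside it Trmt10c (0.9998) and Phactr2 (-0.99999). Scaled to the median level of the reference genes on each array, which lowered every difference by 0.10, the counts were 274 higher and 601 lower. The median difference of the reference genes was 0.04 before this scaling and -0.06 after it. In the next step, day 2 against day 1, 297 genes (2.46%) were higher by that size and 67 (0.556%) lower. From day 3 to day 5 these were 19 (0.158%) and 14 (0.116%). The first step thus held more 2-fold lower genes than the second, 503 against 67, although these steps share the day 1 array.

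The 5 genes taken as markers of the first day were among the largest differences, 3 upward and 2 downward. Pgf, placental growth factor, a ligand of the VEGF family, stood at 4.13 at day 0 and 10.09 at day 1, a 62.1-fold difference. It was then 8.78, 6.10 and 5.59 at days 2, 3 and 5, so day 1 held its highest value. Mmp9, a gelatinase abundant in osteoclasts, went from 8.05 to 11.94 (14.9-fold) and reached 13.29, 13.66 and 13.64 on the later days. Jdp2, an AP-1 family factor needed for osteoclast formation, went from 6.28 to 9.94 (12.7-fold) and then stayed between 10.19 and 10.53. Fcgr1, the high-affinity IgG receptor of macrophages, went from 10.75 to 7.14 (12.2-fold lower), and Gas6, a bridging ligand for the clearance of dead cells, from 10.86 to 7.40. Gas6 was back at 10.00 and 9.99 on days 3 and 5, while Fcgr1 stood at 7.57 and 8.21. These 5 genes were picked with earlier results of these arrays known and are no independent check of the labels.

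**Figure D1:**
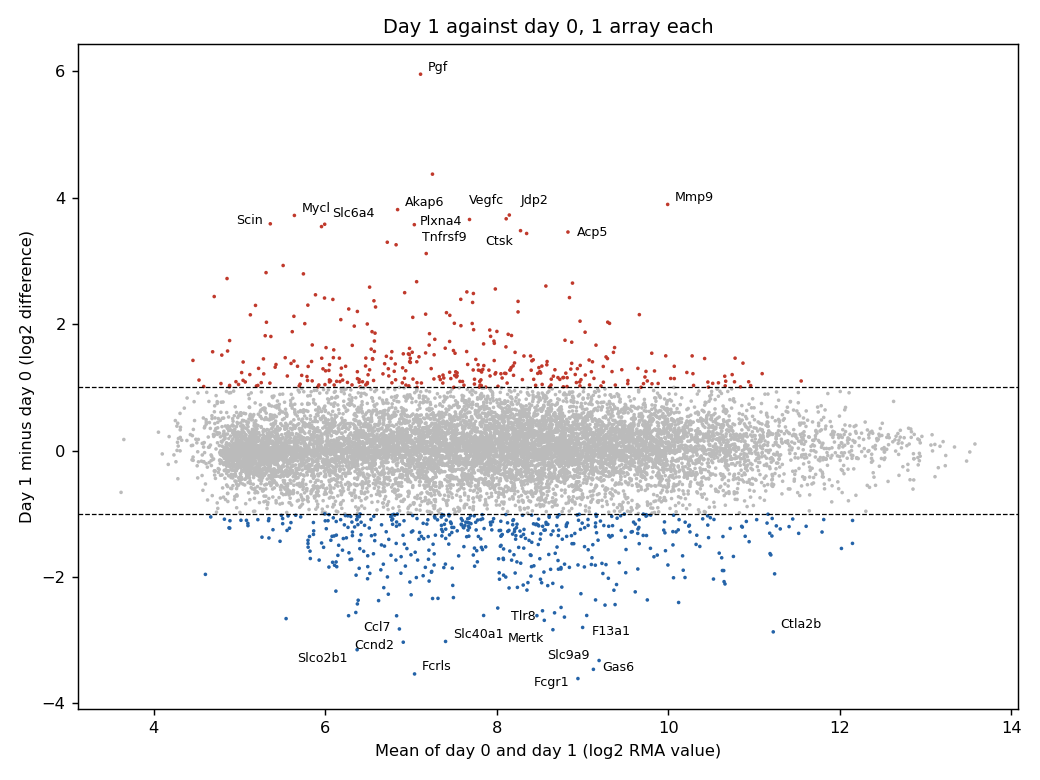
Each point is 1 of 12049 measured genes, with the mean of its day 0 and day 1 values on the x axis and the day 1 minus day 0 difference on the y axis, both on the log2 scale. Dashed lines mark 2-fold, 351 genes are drawn in red above them and 503 in blue below, and the 12 largest differences each way among the genes the naming rule allows are labelled, with Pgf at 5.96 standing apart from the rest.

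The 12 largest positive differences among named genes joined osteoclast effectors with growth factors, signalling genes and transcription factors. After Pgf and Mmp9 came Akap6, an anchoring protein for protein kinase A, which went from 4.94 to 8.75. Vegfc, a growth factor for lymphatic vessels, went from 6.28 to 10.01, and Mycl, a MYC family factor, from 3.78 to 7.50. Both had their highest value at day 1: Vegfc was at 8.70 and Mycl at 5.69 by day 5. The semaphorin receptor Plxna4 (3.66), the actin-severing Scin (3.59) and the costimulatory receptor Tnfrsf9 (3.58) lay close behind Jdp2 (3.67). Slc6a4, the serotonin transporter, went from 4.20 to 7.78 and then down to 7.36, 6.83 and 5.16. The list ended with the collagen-degrading protease Ctsk, from 6.54 to 10.02, and the phosphatase Acp5, from 7.10 to 10.56. For Pgf, Mycl, Scin and Slc6a4 the day 0 value lay below the 4.89 limit.

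The 12 largest negative differences were mostly surface proteins and secreted factors of macrophages. Besides Fcgr1 and Gas6 they held Fcrls, an Fc receptor-like protein (8.81 to 5.27), and Mertk, the receptor for Gas6 (10.07 to 7.24). Tlr8, an endosomal RNA sensor, went from 9.90 to 7.21, and the chemokine Ccl7 from 8.27 to 5.45. F13a1, a subunit of coagulation factor XIII, went from 10.40 to 7.60. Transporters were 3 of the 12. Slc9a9, an endosomal sodium-proton exchanger, went from 10.85 to 7.53, the organic anion transporter Slco2b1 from 7.95 to 4.80, and the iron exporter ferroportin, Slc40a1, from 8.91 to 5.89. The cyclin Ccnd2 (8.42 to 5.39) and the cysteine protease inhibitor Ctla2b (12.66 to 9.79) completed them. Slco2b1 has a second, dimmer row below the level limit, which differed by -0.036.

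The later days split these lower genes. Slc40a1 was back at 8.98 and 9.38 on days 3 and 5, above its day 0 value, and Mertk reached 9.34 and 9.65. Fcrls (5.27 at days 3 and 5), Slco2b1 (4.87 and 4.84) and Ccl7 (5.45 and 5.06) stayed near their day 1 values. Slco2b1 lay below the 4.89 limit from day 1 on and Fcrls (4.56) at day 2, and Ccl7 was not far above it. F13a1 went on down to 5.98 and 5.39, and Ccnd2 was at 4.13 and 5.11.

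**Figure D2:**
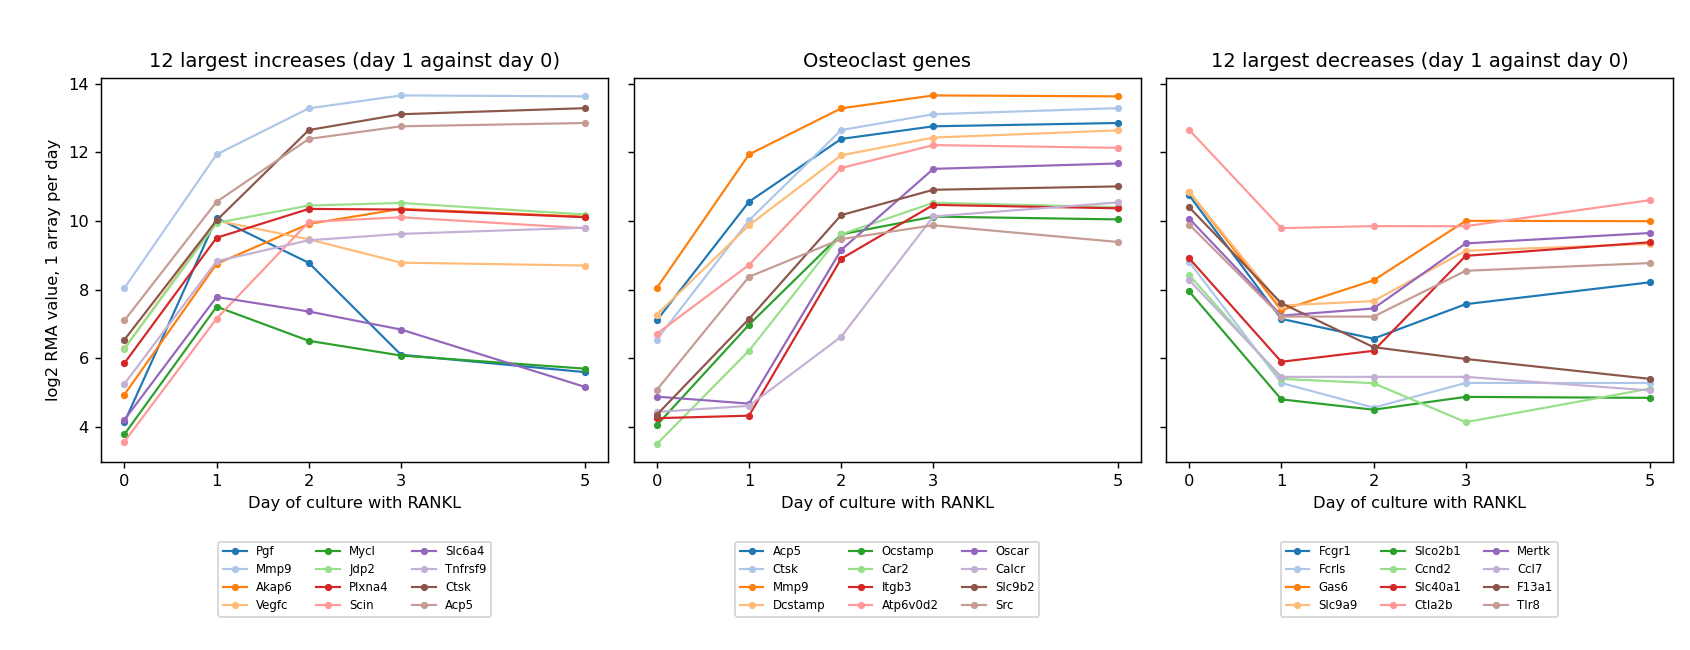
Log2 values on the single array of each day for the 12 genes with the largest increase at day 1 (left), 12 osteoclast genes (middle) and the 12 genes with the largest decrease at day 1 (right). On the left Pgf, Vegfc, Mycl and Slc6a4 are highest at day 1 and lower afterwards. In the middle Itgb3, Oscar and Calcr are still near their day 0 value at day 1, below the 4.89 limit on both arrays. On the right Gas6, Mertk and Slc40a1 are low at days 1 and 2 and high again at days 3 and 5.

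Components of RANK and NF-kB signalling were mostly level at day 1. Among 15 measured genes 2 passed 2-fold upward and 0 downward (median -0.06). The higher ones were Traf2, a TRAF adaptor (8.31 to 9.52), and Nfkb2, the precursor of the p52 subunit (9.28 to 10.34), though when scaled to the reference genes only 1 passed. RANK itself, Tnfrsf11a, stood at 8.97 and 8.79, its adaptor Traf6 at 8.19 and 7.98, and the NF-kB subunit Relb at 8.47 and 8.70. Of 19 feedback and target genes of NF-kB, 3 passed upward and 1 downward (median 0.38). Tnfrsf9 went from 5.25 to 8.83, the adaptor Traf1 from 6.63 to 10.07 and the ubiquitin ligase Birc3, an inhibitor of apoptosis, from 8.98 to 10.08. Traf1 stayed near that level, at 9.75, 9.71 and 9.63 on the later days. The inhibitor Nfkbia was at 10.94 and 11.34, and Bcl2l1, a survival gene, was the lower member (-1.57).

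Promoters of NF-kB target genes often carry the binding site of that factor. The following sequences are shown because they hold matches, for Nfkb2 of the components list and Tnfrsf9 of the target list, which were both higher at day 1. Both are the 250 bases before an annotated start in RefSeq of build GRCm38.p6, 5′ to 3′ on the strand of the gene, with matches to the NF-kB consensus of 10 letters in capitals and, for Tnfrsf9, the AP-1 site TGANTCA as well. Nfkb2 lies on the plus strand at chr19:46304487-46304736, and Tnfrsf9 on the plus strand at chr4:150927749-150927998.
Nfkb2: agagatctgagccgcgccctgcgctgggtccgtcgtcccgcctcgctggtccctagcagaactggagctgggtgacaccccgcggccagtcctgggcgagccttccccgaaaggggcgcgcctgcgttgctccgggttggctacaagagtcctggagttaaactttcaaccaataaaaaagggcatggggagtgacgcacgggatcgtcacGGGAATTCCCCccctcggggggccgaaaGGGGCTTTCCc
Tnfrsf9: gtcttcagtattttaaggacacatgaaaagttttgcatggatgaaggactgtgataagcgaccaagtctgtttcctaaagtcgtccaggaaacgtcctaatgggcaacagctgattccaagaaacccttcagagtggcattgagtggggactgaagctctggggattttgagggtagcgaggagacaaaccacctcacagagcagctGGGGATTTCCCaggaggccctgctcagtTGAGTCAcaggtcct
In Nfkb2 matches lay at -39 to -30 and -38 to -29, which overlap, and at -11 to -2, counted back from the annotated start. In Tnfrsf9 matches at -43 to -34 and -42 to -33 overlap as well, and TGAGTCA lay at -15 to -9. Searched on both strands of windows of 300 bases, the NF-kB consensus was found in 9 of 24 windows (37.5%) of the NF-kB feedback and target list, against 4.51% of all 32851 promoter windows. That list was chosen for genes known to be NF-kB targets. The windows of Traf1 and Birc3, its other higher members, and that of another start of Tnfrsf9 held none, while a window of the lower member Bcl2l1 held a match. Over the 351 genes that were 2-fold higher, of which 243 had a promoter in the table, it was found in 4.82% of windows, against 5.09% for measured genes. The AP-1 site was in 8.68% of them, against 7.93% for the 503 lower genes, 5.51% for measured genes and 7.81% of all windows. Neither motif was found in the windows listed for Pgf and Jdp2, which says only that these letters are not there.

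Immediate early genes and MAP kinase feedback genes were lower more often than higher. Of 22, 1 was higher and 4 were lower (median -0.12). Dusp6, a phosphatase that restrains ERK, went from 11.60 to 9.70, and the transcription factor Klf2 from 7.59 to 5.70. Ier3 (-1.18) and the nuclear receptor Nr4a1 (-1.04) were the other lower ones, and Dusp5, another ERK phosphatase, was the higher one (7.37 to 8.59).

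In calcium and calcineurin signalling 1 of 16 was higher and 2 were lower (median -0.38). The calcineurin regulator Rcan1 was higher (8.14 to 9.29), and the kinase Camk1d (9.04 to 7.87) and the sodium-calcium exchanger Slc8a1 (7.29 to 6.24) were lower. None of the 15 measured ITAM costimulation genes passed (median -0.20). Oscar, an osteoclast receptor for collagen, was at 4.88 and 4.67 on these arrays, both below the 4.89 limit, and at 9.15 at day 2.

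Among transcription factors, a few strong positive differences stood beside many small ones. AP-1 family factors had 2 of 12 higher and 2 lower (median 0.13). Beside Jdp2, Fosl2 was higher (9.18 to 10.24), though not when scaled to the reference genes, which left 1 of 12 higher. Fos went from 8.88 to 9.56 and Junb from 10.25 to 11.23. Atf3, a stress-induced factor, was lower (7.38 to 5.75), as was Batf2 (5.50 to 4.27). Of 18 activators of osteoclast transcription, 5 were higher and 2 lower, with a median of 0.03 that was -0.06 when scaled to the reference genes. The higher ones were Bhlhe40 (7.07 to 9.43), Prdm1 or Blimp1, a repressor of macrophage genes (7.15 to 9.35), Ppargc1b, a coactivator of mitochondrial genes (6.70 to 8.29), Nfatc1 (7.64 to 9.14) and Myc (9.11 to 10.37). Myc was then at 9.94, 8.41 and 8.34, while Nfatc1 was at 9.98, 9.88 and 9.41. The lower ones were Mef2c, at -1.61 in its brighter row but 0.00 in the other, and Mef2a (12.44 to 11.15).

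Genes known to hold osteoclast formation back had 0 of 16 higher and 3 lower (median -0.43). Id1, an inhibitor of helix-loop-helix factors, went from 8.55 to 6.42, its relative Id3 from 8.59 to 7.06, and Irf8 from 9.17 to 7.39. A second, dimmer row of Irf8 gave -1.16. Irf8 was then at 6.80, 7.74 and 7.84, and Id3 at 7.36, 7.94 and 8.28. Bcl6, a repressor that Prdm1 is known to act on, was at 8.52 and 8.20, and Socs1, a brake on cytokine signalling, at 5.23 and 6.22.

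Osteoclast effector genes were split at day 1 between those already higher and those not. In the resorption and adhesion list 9 of 21 passed 2-fold upward and 0 downward. The median was 0.60 at day 1 and 3.42 at day 2, against the same day 0 array. Beside Mmp9, Scin, Ctsk and Acp5, the higher ones included the kinase Src (5.07 to 8.37), the sodium-proton exchanger Slc9b2 (4.35 to 7.14), carbonic anhydrase 2, Car2 (3.49 to 6.21), and the membrane protease Mmp14 (7.52 to 8.79). Itgb3, the beta chain of the integrin that anchors osteoclasts, was at 4.25 and 4.32, and then 8.90 at day 2. Calcr, the calcitonin receptor, was at 4.43 and 4.61, at 6.62 at day 2 and at 10.13 at day 3. Itgb3 and Calcr lay below the 4.89 limit on both arrays and count as measured only through later days. Car2 and Slc9b2 lay below that limit at day 0. The creatine kinase Ckb (10.54 to 9.71) and the vesicle adaptor Plekhm1 (10.33 to 9.35) lay lower at day 1 but above their day 0 values at days 2, 3 and 5.

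Fusion genes had 4 of 16 higher and 2 lower (median 0.08, or -0.02 when scaled to the reference genes). Ocstamp (4.04 to 6.97) and Dcstamp (7.27 to 9.87), membrane proteins required for fusion, were higher, as were the V-ATPase subunit Atp6v0d2 (6.71 to 8.72) and the glycoprotein Cd200 (4.05 to 6.20). Its receptor Cd200r1 was lower (8.67 to 7.41). Ocstamp and Cd200 lay below the 4.89 limit at day 0. The V-ATPase, the pump that acidifies the resorption pit, had 1 of 17 subunits higher, Atp6v0d2, and 1 lower, Atp6v0a1 (10.00 to 8.20), with a median of 0.17. Tcirg1, which encodes the osteoclast form of the same subunit, was at 10.71 and 11.26. Of 14 metalloproteases and inhibitors 2 were higher, Mmp9 and Mmp14, and 1 lower, Mmp13 (6.49 to 5.49; median -0.35).

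Of 7 measured members of the VEGF family 2 were higher and 1 lower (median 0.25). The ligands Pgf and Vegfc were the higher ones, while Vegfa (8.62 and 8.87) and Vegfb (7.03 and 7.16) differed by 0.25 and 0.14. Nrp1, a coreceptor for VEGF and semaphorins, was lower (11.32 to 8.92), while its relative Nrp2 was at 11.65 and 12.57 and the receptor Kdr at 5.51 and 5.33. Flt1, the main receptor for Pgf, was below the level limit, at 4.81 and 4.53.

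**Figure D3:**
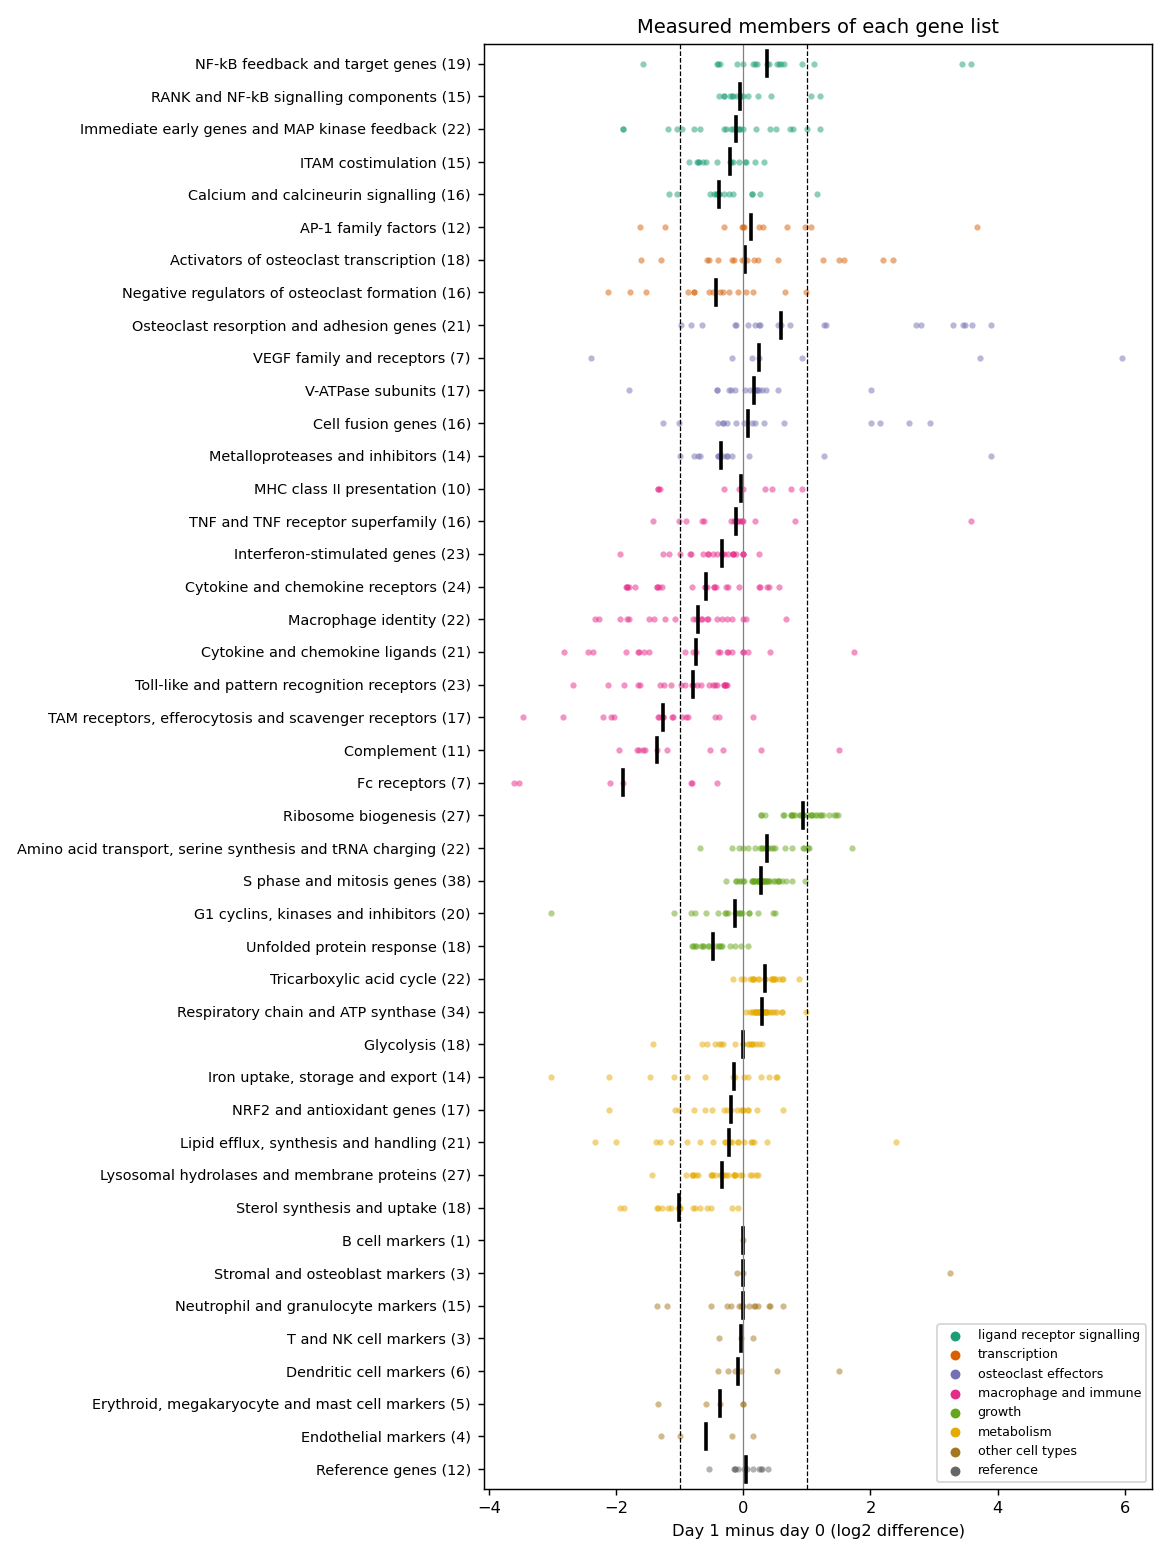
Each dot is a measured member of a gene list at its day 1 minus day 0 log2 difference, each black bar is the median of the list, dashed lines mark 2-fold and the number of measured members follows the name. Fc receptors, complement, TAM receptors and sterol synthesis have the lowest medians (-1.90, -1.36, -1.26 and -1.01), and ribosome biogenesis the highest (0.94).

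Receptors by which macrophages bind antibody, dead cells and lipoproteins were lower at day 1, list by list. All 7 measured Fc receptor genes lay below their day 0 value, 4 of them at least 2-fold and 0 higher (median -1.90). Beside Fcgr1 and Fcrls these were the neonatal receptor Fcgrt (9.41 to 7.32) and Fcgr3 (11.58 to 9.68), while Fcer1g, the signalling chain of Fcgr1 and Fcgr3, was at 12.61 and 12.19. Among TAM receptors, efferocytosis genes and scavenger receptors 11 of 17 were lower and 0 higher (median -1.26). The integrin chain Itgb5 (10.47 to 8.26), the mannose receptor Mrc1 (11.69 to 9.61) and Stab1 (11.54 to 9.51) followed Gas6 and Mertk. Axl, the other TAM receptor of macrophages, was at 8.25 and 8.41 and so did not follow Mertk on these arrays.

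Macrophage identity genes had 9 of 22 lower and 0 higher (median -0.70). The purinergic receptor P2ry12 went from 8.48 to 6.15, the sialoadhesin Siglec1 from 10.11 to 7.85, Ly86 from 10.21 to 8.27 and the chemokine receptor Ccr2 from 7.41 to 5.58. Adgre1, an adhesion receptor long used as a macrophage marker, went from 11.93 to 10.69. Csf1r, the M-CSF receptor, was at 12.50 and 11.71, Itgam at 12.36 and 11.70 and Cd68 at 12.86 and 12.61, so these defining macrophage genes stayed bright on both arrays. In bulk RNA such as this, fewer cells of a type and less RNA per cell cannot be told apart.

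Innate sensors and soluble mediators were lower too. All 23 measured Toll-like and pattern recognition receptors lay below day 0, 8 at least 2-fold and 15 less (median -0.79), with Tlr1 (9.37 to 7.24), Nlrp3 (9.66 to 7.78) and Tlr5 (7.82 to 6.17) after Tlr8. Cytokine and chemokine ligands had 1 of 21 higher and 8 lower (median -0.74, but -0.36 with no level limit). Ccl2 (10.48 to 8.04), Ccl6 (10.94 to 8.57) and Il18 (8.31 to 6.46) were lower beside Ccl7, and Il1rn, the interleukin-1 receptor antagonist, was higher (7.92 to 9.67). Their receptors had 0 of 24 higher and 9 lower (median -0.58), among them Il17ra (9.94 to 8.10), Ccr2 and Il10ra (8.66 to 6.83). Complement genes had 1 of 11 higher and 7 lower (median -1.36). The C1q chains C1qa (12.22 to 10.27), C1qc (9.43 to 7.79) and C1qb (12.79 to 11.25) were lower with the C5a receptor C5ar1 (10.67 to 8.99), and the integrin chain Itgax was higher (7.57 to 9.07).

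The remaining immune lists moved less. The TNF and TNF receptor superfamily had 1 of 16 higher, Tnfrsf9, and 2 lower, Tnfrsf21 (-1.42) and Cd40 (-1.01; median -0.11). Tnf itself was counted with the cytokine ligands and was lower (9.85 to 8.28). Interferon-stimulated genes had 0 of 23 higher and 3 lower (median -0.34), among them Ifi204 (7.49 to 5.55) and Stat2 (9.19 to 7.94). MHC class II presentation had 0 of 10 higher and 3 lower (median -0.03). The lower ones were H2-DMb2 (6.99 to 5.64), H2-DMa (7.95 to 6.61) and the protease Lgmn (12.18 to 10.87). Whatever the size, 4 lay above day 0 and 5 below. Those above were Ifi30 (11.06 and 11.98) and the class II chains H2-Eb1 (6.33 and 7.09), H2-Aa (5.78 and 6.23) and H2-Ab1 (7.91 and 8.26).

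Ribosome biogenesis had the highest median of all lists. All 27 measured genes lay above their day 0 value, 13 at least 2-fold, against 2.91% of all measured genes, and 0 were lower (median 0.94). Scaled to the reference genes 9 passed and all 27 stayed above. The list is wider than its name. It also counts Srm and Odc1 (7.48 to 8.70), enzymes of polyamine synthesis, and the coactivator Pprc1 (8.71 to 9.48). The pseudouridine synthase Dkc1 went from 8.53 to 10.02, the spermidine synthase Srm from 10.05 to 11.51, the RNA polymerase I subunit Polr1b from 7.70 to 9.12 and Rrs1 from 8.30 to 9.65. A second, dimmer row of Rrs1 gave 0.47. By day 5 Dkc1 stood at 7.60, Srm at 9.61 and Polr1b at 7.42, all below day 0, while Rrs1 was at 8.47, above it. The list median was 0.71 at day 2, -0.33 at day 3 and -0.30 at day 5 against the same day 0 array.

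MYC and its partner MAX bind the E-box CACGTG, and the promoter of Nop2, a nucleolar RNA methyltransferase (9.89 to 10.83), is shown because it holds that hexamer before its start. The hexamer and Nop2 were chosen after the values of the list had been seen. It is on the plus strand at chr6:125131633-125131882 of GRCm38.p6, from RefSeq, with CACGTG in capitals at -60 to -55.
Nop2: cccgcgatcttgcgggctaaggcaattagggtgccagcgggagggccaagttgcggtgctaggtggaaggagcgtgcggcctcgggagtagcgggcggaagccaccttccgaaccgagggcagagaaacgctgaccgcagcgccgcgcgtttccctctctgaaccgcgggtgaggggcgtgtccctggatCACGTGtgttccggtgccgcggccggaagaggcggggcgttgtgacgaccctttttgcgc
The hexamer, which reads the same on both strands, was found in 5 of 24 windows (20.8%) of the ribosome biogenesis list, against 9.89% of the windows of all measured genes and 7.15% of all promoter windows. It was in 11.6% of the windows of the 351 higher genes and 8.13% of those of the 503 lower genes. The windows of Dkc1 and Polr1b, among the leading members of the list, held none. That of Pes1, the member with the smallest difference (0.27), held a match. Nop2 itself did not reach 2-fold.

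Genes of cell growth differed less. S phase and mitosis genes had 0 of 38 at 2-fold either way, 32 above their day 0 value (31 when scaled to the reference genes) and a median of 0.28. Cdc20, an activator of the anaphase-promoting complex, was at 10.08 and 11.06, and the proliferation marker Mki67 at 11.60 and 11.77. G1 cyclins, kinases and inhibitors had 0 of 20 higher and 2 lower (median -0.12), Ccnd2 and Ccnd3 (9.03 to 7.95) being the lower ones. Amino acid transport, serine synthesis and tRNA charging had 3 of 22 higher and 0 lower (median 0.38), or 1 higher when scaled to the reference genes. The leucine transporter Slc7a5 went from 8.02 to 9.73 and was at 6.69 and 6.79 on days 3 and 5, and its partner chain Slc3a2 was at 11.67 and 10.98. None of the 18 unfolded protein response genes passed, with 17 below day 0 and a median of -0.48, which came to -0.02 at day 2.

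Mitochondrial lists lay slightly above day 0 without any gene reaching 2-fold. All 34 respiratory chain and ATP synthase genes were above their day 0 value, or 32 when scaled to the reference genes (median 0.29). They ran from 0.04 to 0.99, the largest being Atp5d, whose second row gave 0.34. In the tricarboxylic acid cycle 20 of 22 were above, or 19 so scaled (median 0.34), with Idh3a (9.46 to 10.33) and Mdh2 (11.30 to 11.92) leading. Glycolysis had 0 of 18 higher and 1 lower, the hexokinase Hk3 (9.09 to 7.67; median 0.00).

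Sterol synthesis and uptake was the metabolic list with the lowest median. All 18 measured genes lay below day 0, 9 at least 2-fold, and 0 were higher (median -1.01). Insig1, which retains the sterol sensor in the endoplasmic reticulum, went from 8.99 to 7.06, the synthase Hmgcs1 from 9.57 to 7.69, Fdps from 11.32 to 9.96 and Fdft1 from 10.38 to 9.04. Insig1 was back at 9.43 and 9.30 on days 3 and 5, while Sqle, squalene epoxidase, went from 10.84 to 9.66 and was at 9.09 and 9.19. Lipid efflux, synthesis and handling had 1 of 21 higher and 5 lower (median -0.23). The sterol exporter Abcg1 was higher (6.38 to 8.78), while Abca1, another exporter, was lower (9.40 to 8.25) with the desaturases Fads2 (11.20 to 9.19) and Fads1 (11.16 to 9.78). The cholesterol hydroxylase Ch25h was lower in its brighter row (8.42 to 6.08) and differed by -0.25 in the other.

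Iron genes had 0 of 14 higher and 4 lower (median -0.15). After Slc40a1 came the heme oxygenase Hmox1 (11.72 to 9.61), Hfe (9.61 to 8.14) and the mitochondrial iron importer Slc25a37 (10.67 to 9.58). Among 17 NRF2 targets and antioxidant genes 0 were higher and 3 lower (median -0.19), with Gclm (10.94 to 9.86) and Gclc (10.25 to 9.24), the subunits of the glutathione-synthesising ligase, beside Hmox1. Of 27 lysosomal genes 0 were higher and 1 lower, the protease Ctsc (11.66 to 10.22; median -0.34).

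Markers of other cell types were read as a check on the makeup of the cultures. Of 15 neutrophil and granulocyte markers 0 were higher and 2 lower, Csf3r (7.80 to 6.44) and Hp (6.95 to 5.74; median -0.01). Whatever the size, 7 lay above their day 0 value and 8 below. Ngp (9.44 and 9.61) and S100a8 (8.64 and 8.88) were well above the level limit on both arrays. Dendritic cell markers had 1 of 6 higher, Itgax (median -0.08), with Flt3 and Zbtb46 below the level limit. The 3 measured T and NK cell markers (median -0.03), the B cell marker Cd22 (0.00) and the stromal markers Col1a1 and Pdgfrb passed in neither direction. Dcn, a proteoglycan usually read as stromal, went from 5.20 to 8.45, but Col1a2 (4.76 and 4.65), Col3a1 (4.61 and 4.61) and Lum (2.78 and 2.69) stayed below the limit on both arrays. Endothelial markers had 1 of 4 lower, Cdh5 (6.96 to 5.67; median -0.59, but -0.15 with no level limit), and Pecam1 was below the limit. Of 5 erythroid, megakaryocyte and mast cell markers 1 was lower, Ppbp (8.89 to 7.55; median -0.36), with Gata1 and Klf1 below the limit. None of the 12 reference genes passed (median 0.04), from -0.54 for Actb to 0.38 for Polr2a. The part these markers have in the other differences was not tested.

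**Figure D4:**
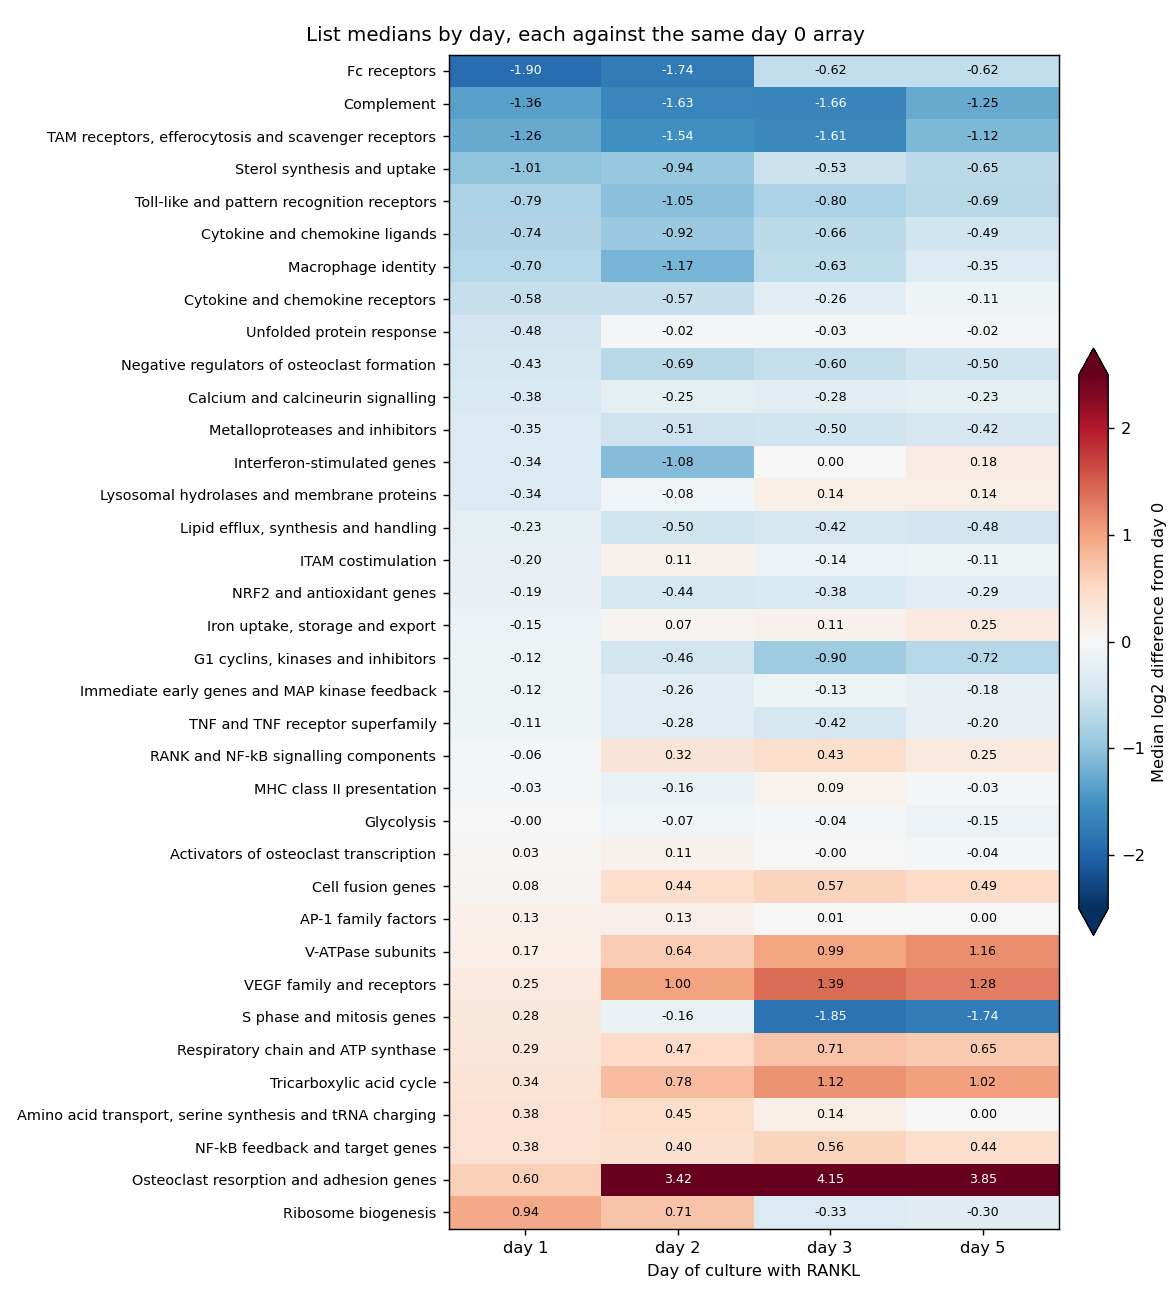
Median log2 difference of each list from the day 0 array at days 1, 2, 3 and 5, with the value in each cell, ordered by day 1 and with the colour scale ending at 2.5 either way. All 4 columns use the same day 0 array, so they are not independent; resorption genes go from 0.60 at day 1 to 3.42 at day 2, and ribosome biogenesis from 0.94 at day 1 to -0.33 at day 3.

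Whether the day 1 differences were followed by a later change was read from days 2 and 5, arrays that the day 1 difference does not use, although the level limit uses all 5. Of the 351 genes 2-fold higher at day 1, 84 (23.9%) were lower by 2-fold or more at day 5 than at day 2, and 9 (2.56%) were higher (median -0.33). Among all measured genes these shares were 3.75% and 2.78%, and the median was 0.00. Of the 503 genes 2-fold lower at day 1, 102 (20.3%) were higher by 2-fold or more at day 5 than at day 2, and 7 (1.39%) were lower (median 0.41). Genes that differed at day 1 thus moved more often the opposite way between days 2 and 5 than measured genes as a whole. Pgf (8.78 to 5.59) and Slc6a4 (7.36 to 5.16) are examples of the former, and Slc40a1 (6.21 to 9.38) and Mertk (7.45 to 9.65) of the latter.

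**Figure D5:**
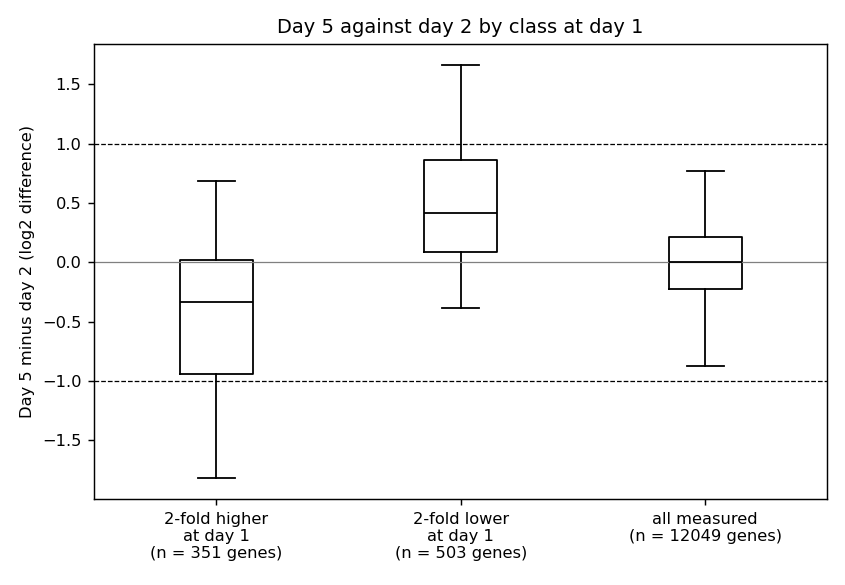
Day 5 minus day 2 log2 difference for the genes 2-fold higher at day 1 (351), 2-fold lower at day 1 (503) and all measured genes (12049); boxes span the quartiles, the line is the median and whiskers reach the 5th and 95th percentiles over genes. The medians are -0.33, 0.41 and 0.00, so the groups lie on opposite sides of zero.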

How the data were processed

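Expression was measured on single Affymetrix arrays of 5 days, placed by the time that the labels give. The deposited values are log2 values made by the authors with RMA (oligo, R 3.4.0), per the submitters' processing notes. The summary level, probe annotation and build are not stated there. Exact ties between days 0 and 1 made up 7.68% of measured genes.

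Of 41345 rows, 23521 named 1 gene, 1814 several and 16010 were not listed in the platform annotation. Entrez identifiers were looked up in RefSeq of GRCm38.p6 (23328 matched, 0 changed). Where a gene had several rows (1082 genes), its brightest was taken. Each comparison is a difference of log2 values between 2 arrays, counted from a size of 1, with no test. The 44 gene lists hold 870 entries, and 67 of these could not be matched to a row. The members and lists were chosen with earlier results of these data known. The rule named the 12 largest differences each way, the 5 markers, the up to 4 largest members and the largest in each direction of each list, and a fixed set of osteoclast and macrophage genes. 1 gene of that set is not reported here. The rule counted, but did not name, small RNA genes, predicted genes, antigen receptor segments and odorant receptors, and for most lists only the leading members are printed. Outside the rule, and after their values had been seen, Abca1, C1qb, Cd68, Ckb, Fcer1g, H2-Aa, H2-Ab1, H2-Eb1, Itgam, Junb, Mef2a, Myc, Nfkbia, Ngp, Nop2, Nr4a1, Odc1, Pes1, Pprc1, S100a8, Slc9b2, Sqle, Src, Stab1, Tnf, Vegfa, Vegfb and the markers below the level limit were named as members of their lists. Alternatives covered array scaling, genes with several rows, the level and size limits, the day compared and the list summary. Counting was tested on shuffled day 5 minus day 3 differences with planted changes. Those differences spread less than the day 1 differences, and recovery was required at 4-fold and 8-fold, not at 2-fold. Python 3.11.15, numpy 2.4.6, pandas 2.3.3 and matplotlib 3.10.9 were used.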

Additional observations from a re-analysis of the deposited data

How the results depend on the processing

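No paired analysis was possible because each day has 1 array. The counts of 351 higher and 503 lower genes lay within 1.5 times of these values under both scalings (274 and 601, 345 and 508), with rows of a gene averaged (336 and 487), with no level limit (380 and 529) and with the limit set on days 0 and 1 alone (340 and 505). With the limit at the 75th percentile of rows they were 231 and 324. Counted from 1.5-fold they were 1175 and 1179, and from 4-fold 61 and 66. With day 2 in place of day 1 they were 624 higher and 632 lower. No list whose median was at least 0.5 in size, and no gene named by the rule that differed 2-fold, changed sign under these alternatives. For genes named outside the rule the alternatives were not run. The mean of the members in place of the median gave 1.23 for resorption genes, 0.46 for fusion, -0.0059 for metalloproteases, 1.1999 for the VEGF family, -0.91 for complement, -0.55 for iron and 1.05 for stromal markers, against 0.60, 0.08, -0.35, 0.25, -1.36, -0.15 and 0.00. With no level limit the Fc receptor median was -1.36 and the complement median -0.86. Exchanging a culture, an animal or an array of the same day could not be tried, so stability between cultures is unknown.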

Other observations

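Small nucleolar RNA genes, which guide the modification of ribosomal RNA, were looked at after the list of ribosome biogenesis genes had been seen, so this family was chosen from the data. Of 61 measured genes with a Snora or Snord symbol, 24 passed 2-fold upward and 0 downward, against 2.91% and 4.17% of all measured genes. The median was 0.65, and 56 lay above their day 0 value, against 5921 of all 12049. Snora73b went from 8.28 at day 0 to 10.31 at day 1 and was at 9.12, 7.18 and 7.30 on the later days. Snord52 went from 6.40 to 8.16 and was at 7.32, 4.99 and 5.37. Most of these RNAs are cut from introns of host genes, and whether a row reads the small RNA or its host transcript was not tested.

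The gene 1700012B09Rik, which the naming rule leaves out and which is named here after its value was seen, had the second largest positive difference of all measured genes, from 5.06 at day 0 to 9.44 at day 1. It was at 9.35, 8.66 and 8.11 on the later days. Gfi1b, a transcription factor of erythroid and megakaryocyte cells that was also picked after its value was seen, went from 5.22 to 7.81 and then down to 7.18, 6.34 and 5.64. Of 7065 rows above the level limit with no gene in the annotation, 244 (3.45%) passed 2-fold upward at day 1 and 238 (3.37%) downward.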
